A study of Homo sapiens with 12 samples.

Results

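The pre-B receptor and the enzymes that cut and join immunoglobulin gene segments were followed through 10 genes in a pair of B-cell acute lymphoblastic leukaemia cell lines. The genes were VPREB1, IGLL1, IGHM, CD79A, CD79B, SYK, BLNK, RAG1, RAG2 and DNTT. They were chosen by name, by the Ensembl identifier that maps to each symbol, and all 10 were found among the 60664 genes of the count table and passed the filter on low counts. TOM-1 is positive for the Philadelphia chromosome, the source of the BCR::ABL1 fusion. In RS4;11 the KMT2A gene is rearranged. The 4 groups were TOM-1 in control culture, TOM-1 with ADI-PEG20, RS4;11 in control culture and RS4;11 with ADI-PEG20, each with 3 libraries. ADI-PEG20 is a pegylated arginine deiminase, which removes arginine from the medium, and was given at 1000 ng/ml for 24 h to cells in log-phase growth. All groups were unmodified cells, labelled as wild type and lymphoblast, grown in RPMI with fetal bovine serum, so each line stands for 1 leukaemia of its kind. The labels do not say whether the 3 libraries of a group came from separate cultures, so p-values measure only the spread between these libraries.

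In a developing B cell, RAG1 and RAG2 together cut the heavy chain locus between its segments, and DNTT, the terminal transferase, adds untemplated bases to the ends before they are joined. A productive μ heavy chain, whose constant region IGHM encodes, is then displayed with the surrogate light chain, a pair formed by VPREB1 and IGLL1 (lambda 5). CD79A and CD79B are the signalling subunits that carry this receptor on the membrane, SYK is the kinase that docks on their phosphorylated tails, and BLNK is the adaptor through which SYK reaches its downstream targets. The pre-B receptor is known as a checkpoint, and as a feature that divides B-cell leukaemias into subsets.

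Both lines carried B-lineage RNA. The summed level of 6 B-lineage markers (PAX5, EBF1 and CD22 among them) lay between 1493 and 1889 CPM (counts scaled to a common library total) over all libraries, while single markers differed. In control culture 3 of the 6 separated the lines, where 34.7% of all genes tested were called. Of these, IKZF3 was higher in TOM-1 (log2 difference 3.74), and EBF1 (-0.86) and CD79A (-0.75) were lower. When TOM-1 control replicate 3 was left out, 5 of the 6 separated the lines, where 52.8% of all genes were called. Of 8 T-cell markers, CD3D, CD3G and CD2 had 3 counts or fewer in every library of each group, while TRAC and LCK gave the list a sum of 129 to 223 CPM in TOM-1 control libraries and 485 to 537 CPM in RS4;11 control libraries. The 6 markers of mature B and plasma cells summed to 248 to 350 CPM in TOM-1 control libraries and 1.67 to 2.15 CPM in RS4;11. CR2 had 3 counts or fewer throughout, and so had SDC1 in TOM-1. Of the 4 that passed the filter, 2 were called higher in TOM-1, MS4A1 among them (log2 difference 11.5), and 1 lower. The 4 progenitor markers summed to 150 to 215 CPM in TOM-1 control libraries and 554 to 612 CPM in those of RS4;11. Single progenitor markers went opposite ways, with CD34 higher in TOM-1 (log2 difference 4.12) and PROM1 lower (-9.51). The part of these differences in the results was not tested. The 3 erythroid markers summed to between 0 and 0.257 CPM. Totals ran from 18958144 to 35956959 counts per library. TOM-1 control replicate 3 stood apart. Only 14963 genes had a read there (19857 to 21997 elsewhere), and its log counts correlated with its own replicates at 0.926 and 0.921, against 0.975 or more for every other pair of replicates. Results that rest on its group are given with all 12 libraries, and the members' main results also without that library; for other genes named, the call and the sign were the same in both fits unless a second value is given.

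The members sit in a few places of the genome, and these positions matter for reading their counts. In GENCODE 29 on GRCh38, VPREB1 lies on chr22:22244675-22245515 (plus strand) and IGLL1 on chr22:23573125-23580308 (minus strand). BLNK (chr10:96191702-96271587, minus) and DNTT (chr10:96304396-96338564, plus) stand head to head, with 32809 bases between their starts and no other protein-coding start between them. RAG1 (chr11:36510709-36593156, plus) and RAG2 (chr11:36575574-36598279, minus) face each other and overlap. IGHM is on chr14:105851705-105856218 (minus), CD79A on chr19:41877120-41881372 (plus), CD79B on chr17:63928740-63932354 (minus) and SYK on chr9:90801787-90898549 (plus). Of the exonic bases of RAG2, 26% lie opposite an exon of RAG1 or of IFTAP (listed as C11orf74), and 7.5% of those of RAG1 lie opposite RAG2. CD79B shares 13.8% of its exonic bases with AC127029.3 on the same strand, and BLNK has 9.7% opposite ZNF518A. Whether strand was used in counting is not given in the sources used here, so reads in those bases cannot be assigned with certainty.

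The sequences just before the starts of 3 pairs of members are shown because each pair acts as a unit or shares a locus, and the results turn on how its genes moved together or apart: VPREB1 with IGLL1, RAG1 with RAG2, and BLNK with DNTT. They come from RefSeq on GRCh38.p14, which held a window for 8 of the 10 members. Each is written 5′ to 3′ on the strand of its gene and ends where the GENCODE gene begins or, for RAG1, at the RefSeq start. They are chr22:22244536-22244674 (plus strand) for VPREB1, chr22:23580309-23580540 (minus) for IGLL1, chr11:36510103-36510352 (plus) for RAG1, chr11:36598280-36598486 (minus) for RAG2, chr10:96271588-96271819 (minus) for BLNK and chr10:96304184-96304395 (plus) for DNTT. Capitals mark CAGGTG or its reverse complement CACCTG, the E-box letters bound by E2A proteins.
VPREB1: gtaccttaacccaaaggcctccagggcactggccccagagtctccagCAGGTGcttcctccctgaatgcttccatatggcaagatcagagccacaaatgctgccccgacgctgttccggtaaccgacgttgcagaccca
IGLL1: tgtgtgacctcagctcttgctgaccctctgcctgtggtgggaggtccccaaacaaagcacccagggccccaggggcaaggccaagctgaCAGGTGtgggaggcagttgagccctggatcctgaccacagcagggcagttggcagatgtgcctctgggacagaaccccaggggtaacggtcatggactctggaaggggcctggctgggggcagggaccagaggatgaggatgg
RAG1: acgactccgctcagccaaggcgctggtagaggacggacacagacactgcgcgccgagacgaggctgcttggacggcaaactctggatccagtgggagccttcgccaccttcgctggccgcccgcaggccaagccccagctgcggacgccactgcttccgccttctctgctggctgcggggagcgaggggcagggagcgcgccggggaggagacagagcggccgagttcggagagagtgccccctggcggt
RAG2: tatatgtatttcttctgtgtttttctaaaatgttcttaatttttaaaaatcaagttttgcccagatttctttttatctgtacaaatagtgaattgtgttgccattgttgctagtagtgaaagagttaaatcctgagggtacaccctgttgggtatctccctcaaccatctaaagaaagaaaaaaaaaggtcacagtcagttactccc
BLNK: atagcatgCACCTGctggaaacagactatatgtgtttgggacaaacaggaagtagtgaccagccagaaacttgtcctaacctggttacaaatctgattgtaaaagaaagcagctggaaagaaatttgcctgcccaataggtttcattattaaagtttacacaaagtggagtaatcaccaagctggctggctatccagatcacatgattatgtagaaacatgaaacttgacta
DNTT: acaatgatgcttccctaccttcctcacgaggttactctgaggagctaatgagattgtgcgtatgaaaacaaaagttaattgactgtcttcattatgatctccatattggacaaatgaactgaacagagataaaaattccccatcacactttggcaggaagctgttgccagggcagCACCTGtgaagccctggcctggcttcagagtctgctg

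The E-box letters stood in the 250 bases before the RefSeq start of VPREB1, IGLL1, BLNK, DNTT and CD79A, and in 1 of the 3 windows of SYK. They were not in the windows of RAG1 or RAG2. Of all 35116 RefSeq promoter windows of that length, 17.5% held them on either strand. The other letters searched on both strands were the EBF1 palindrome (in 1.06% of all windows), the octamer ATTTGCAT (1.63%), TGATGNAA of the amino acid response (3.14%) and TGGGAA of Ikaros (20.8%); none of the motifs overlapped another in a member's window. TGGGAA was found in 1 of the windows of SYK, and the EBF1, octamer and amino acid response letters were in no member's window. The sequence shown for RAG1 was 70% G or C and that for RAG2 33.3%. The RAG1 window also covers the start of TRAF6 (chr11:36487027-36510272, minus strand) and ends before the GENCODE start of RAG1. Its letters and base composition are therefore not those of RAG1 alone.

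In control culture the lines differed in the RNA of most members. Of the 10 members, 8 differed between the lines, 5 higher in TOM-1 (VPREB1, CD79B, BLNK, RAG1, DNTT) and 3 lower (CD79A, SYK, IGHM), where 34.7% of all 17349 genes tested were called (edgeR's quasi-likelihood test, Benjamini-Hochberg adjusted p under 0.05). With TOM-1 control replicate 3 left out the same 8 members were called, where 52.8% of 18321 genes were. The median log2 difference of the members was 0.71, or 0.12 without that library, beside 0.01 and -0.01 over all genes tested.

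DNTT was the member that differed most. It stood at 3267, 3271 and 4031 CPM in the TOM-1 control libraries, and at 79.1, 88.8 and 65 CPM in those of RS4;11. Every TOM-1 library was far above every RS4;11 library, and the log2 difference was 5.50 ± 0.18 (SE; 45.4-fold; adjusted p = 4.85e-09, edgeR). BLNK, its neighbour on chromosome 10, stood at 294, 296 and 227 CPM in TOM-1 and at 19.2, 20.5 and 17.2 CPM in RS4;11. Its groups did not overlap, with a log2 difference of 3.84 ± 0.16 (SE; 14.3-fold; adjusted p = 1.21e-08). Without TOM-1 control replicate 3 the log2 differences were 5.39 for DNTT and 3.95 for BLNK. OPALIN, the next protein-coding gene beyond DNTT, was also higher in TOM-1 (log2 difference 4.65, adjusted p = 0.00131; 5.16 without replicate 3), at a mean of 6.97 CPM against 0.27 CPM. Of the other tested genes within 500 kb, CC2D2B was higher in TOM-1 (1.45, adjusted p = 0.0241), at a mean of 2.03 CPM against 0.74 CPM, and PIK3AP1 was lower (-0.83, adjusted p = 0.0107). ZNF518A, which overlaps the far end of BLNK, had a log2 difference of 0.08 (adjusted p = 0.906), and 0.50 without replicate 3 (adjusted p = 2.63e-05). TM9SF3 had one of 0.06 (adjusted p = 0.851), and 0.31 without replicate 3 (adjusted p = 0.000546). CCNJ and TLL2 passed in neither fit.

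The recombinase pair was split. RAG1 stood at 752, 732 and 220.3 CPM in TOM-1 control libraries and at 217, 215 and 177 CPM in RS4;11. The TOM-1 library at 220.3 CPM was replicate 3, which sat just above the RS4;11 range while its replicates were well above it. The log2 difference was 1.48 ± 0.34 (SE, adjusted p = 0.00443), and 1.86 ± 0.07 without that library (adjusted p = 3.42e-15). RAG2 stood at 63.4, 64.4 and 33.4 CPM in TOM-1 and at 68.8, 71.1 and 62.4 CPM in RS4;11. These ranges overlapped, and the log2 difference of -0.33 ± 0.20 (SE) did not pass (adjusted p = 0.241). With the library left out it was -0.08 ± 0.08 (adjusted p = 0.433).

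The signalling subunits lay on opposite sides. CD79A was lower in TOM-1, at 125, 121 and 247 CPM against 267, 275 and 285 CPM, with a log2 difference of -0.75 ± 0.22 (SE, adjusted p = 0.0202). CD79B was higher in TOM-1, at 133, 129.5 and 385 CPM against 63.5, 62.3 and 59 CPM, with a log2 difference of 1.81 ± 0.34 (SE, adjusted p = 0.00124). In both genes the highest TOM-1 value was that of replicate 3, and neither gene's groups overlapped. Without replicate 3 the log2 differences were -1.17 ± 0.06 for CD79A (adjusted p = 7.27e-13) and 1.09 ± 0.07 for CD79B (adjusted p = 3.87e-11). The CD79A call was lost with TOM-1 control replicate 1 left out (adjusted p = 0.0532) or RS4;11 control replicate 1 left out (adjusted p = 0.0509).

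SYK was lower in TOM-1, at 72.7, 72.5 and 71.5 CPM against 194, 204 and 172 CPM. Here TOM-1 control replicate 3 lay with its replicates, and the log2 difference was -1.39 ± 0.10 (SE, adjusted p = 6.9e-07). With BLNK high and SYK low, the kinase and its adaptor were reversed between the lines: per kilobase of exon, SYK counts were 0.172 to 0.221 times those of BLNK in TOM-1 control libraries and 6.96 to 7.08 times in RS4;11.

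Of the chains, IGHM was lower in TOM-1, at 268, 268 and 524 CPM against 653, 683 and 762 CPM. The log2 difference was -0.99 ± 0.22 (SE, adjusted p = 0.00401), and -1.39 ± 0.07 without replicate 3 (adjusted p = 2.04e-13). VPREB1 stood at 286, 269 and 820 CPM in TOM-1 and at 220.1, 237 and 210.3 CPM in RS4;11. The groups did not overlap, but the size of the difference rested on 1 library: it was 1.04 ± 0.33 on the log2 scale (SE, adjusted p = 0.0303) and 0.31 ± 0.07 without TOM-1 control replicate 3 (adjusted p = 0.0012). The VPREB1 call was lost with any of the 3 RS4;11 control libraries left out (adjusted p = 0.0899, 0.0766 and 0.0994 without replicates 1, 2 and 3). IGLL1 stood at 709, 687 and 1569 CPM in TOM-1 and at 712, 813 and 743 CPM in RS4;11, and no difference was detectable (log2 difference 0.39 ± 0.26, adjusted p = 0.28).

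**Figure D1:**
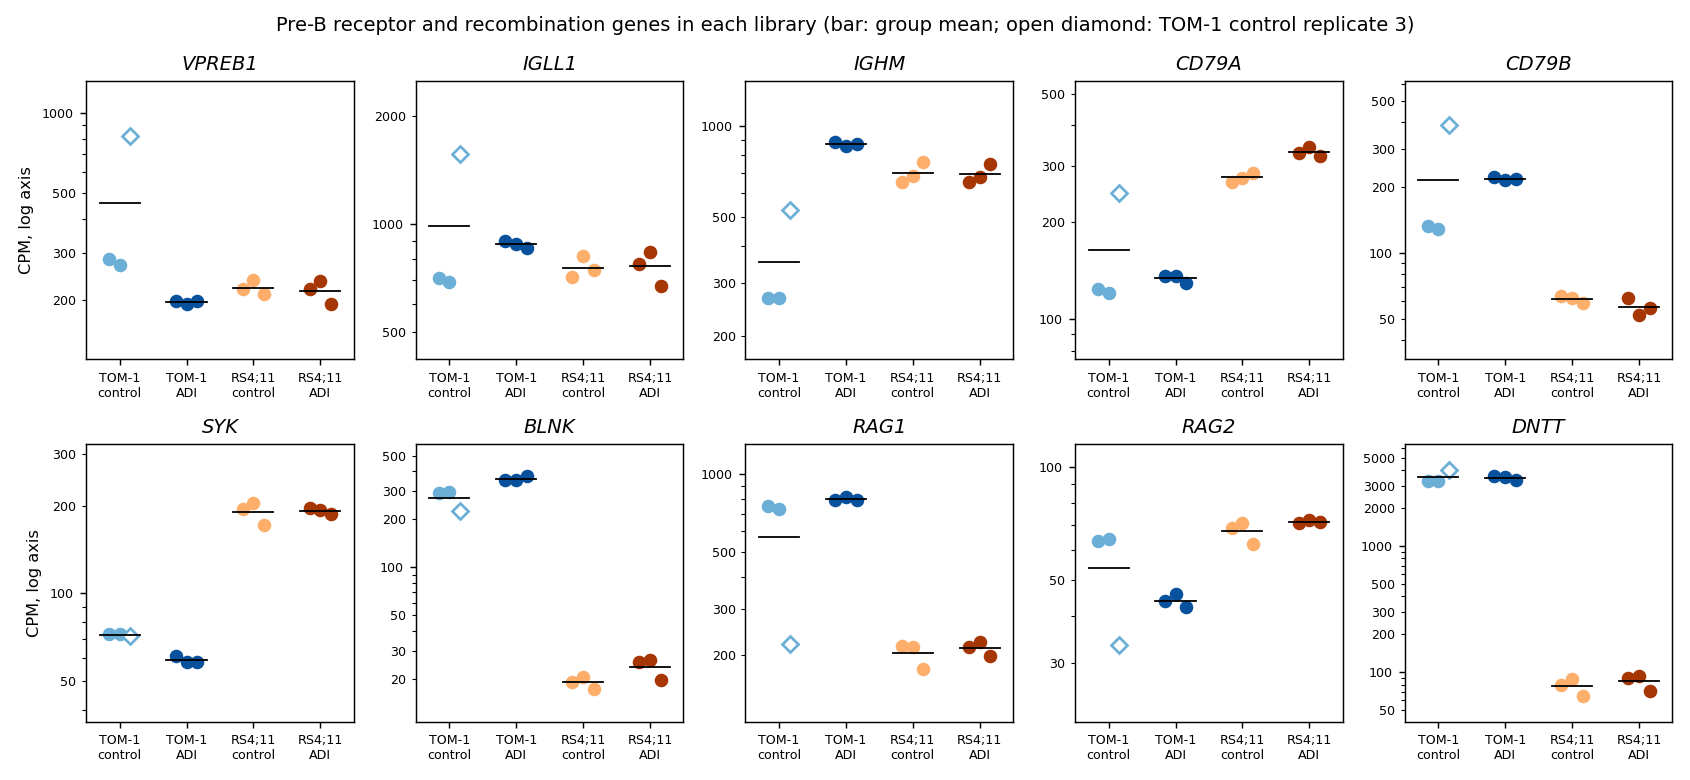
Level of each member in each library, in CPM on a log axis, 3 libraries for each of the 4 groups; bars are group means and the open diamond is TOM-1 control replicate 3. DNTT, BLNK, SYK, CD79A and CD79B separate the lines in every library, and the diamond departs from its replicates in 9 of the 10 members, SYK being the exception.

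**Figure D2:**
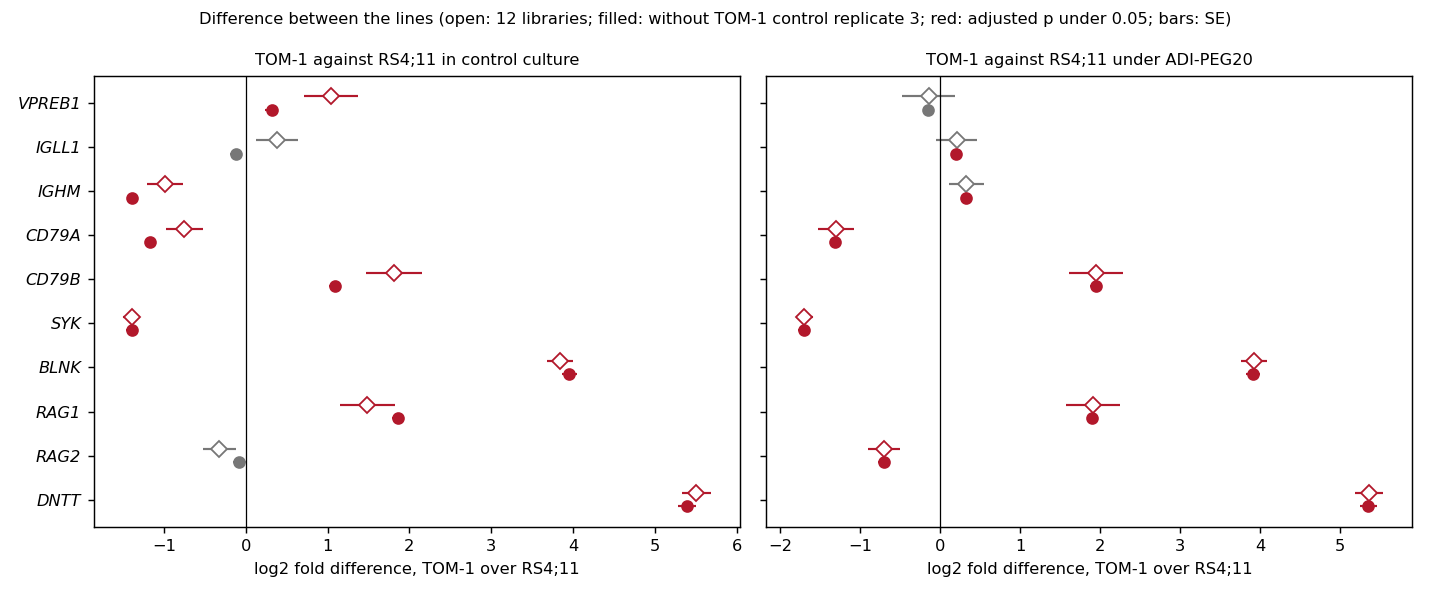
Log2 difference of each member, TOM-1 over RS4;11, in control culture (left) and under ADI-PEG20 (right), with SE bars; open diamonds use all 12 libraries, filled circles leave out TOM-1 control replicate 3, and red marks an adjusted p under 0.05. DNTT and BLNK lie far to the right in both panels, at 5.50 and 3.84 in control culture.

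Levels can be set in order between genes only per kilobase of exon. In RS4;11 control libraries the order, as mean CPM per kilobase, was IGLL1 (836), IGHM (374), VPREB1 (295), CD79A (184), DNTT (39.4), SYK (36.4), CD79B (29.6), RAG1 (26), RAG2 (19.3) and BLNK (5.19). Only the ranges of DNTT and SYK overlapped among these neighbours. In TOM-1 control libraries without replicate 3 the order was DNTT (1658), IGLL1 (772), VPREB1 (367), IGHM (143), RAG1 (94.9), CD79A (81.5), BLNK (80.7), CD79B (63.2), RAG2 (18.3) and SYK (13.9). There only CD79A and BLNK overlapped. With replicate 3 included, 7 of the 9 neighbouring pairs of the TOM-1 order overlapped, and RAG1 fell to the eighth place (72.7 CPM per kilobase).

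The members that changed in TOM-1 with ADI-PEG20 did so in both directions. With all libraries, 3 of the 10 members changed in TOM-1, IGHM and BLNK upward and VPREB1 downward. That share was near the 31.9% of all genes tested that were called. When TOM-1 control replicate 3 was left out, 7 members changed, 4 upward (IGHM, CD79B, IGLL1, BLNK) and 3 downward (VPREB1, RAG2, SYK), where 41.6% were called. The members' median log2 fold change was -0.09, and 0.12 without that library, beside 0.05 and 0.00171 over all genes.

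IGHM, the μ constant region, rose. It stood at 268, 268 and 524 CPM in TOM-1 control libraries and at 885, 860 and 872 CPM with ADI-PEG20, so every treated library was above every control library. The log2 fold change was 1.30 ± 0.22 (SE; 2.47-fold; adjusted p = 0.00102, edgeR), and 1.70 ± 0.07 without replicate 3 (3.25-fold; adjusted p = 3.35e-14). It passed in all 12 fits that left out 1 library. VPREB1, which pairs with IGLL1 to fill the place of a light chain, moved the other way. Its treated libraries stood at 198, 193 and 198 CPM, below the lowest control library at 269 CPM. The log2 fold change was -1.22 ± 0.34 (SE, adjusted p = 0.0157). Without TOM-1 control replicate 3, at 820 CPM the highest VPREB1 value of the series, it was -0.50 ± 0.07 (adjusted p = 8.41e-06), and without TOM-1 ADI-PEG20 replicate 2 it was -1.25 (adjusted p = 0.0506). Fitted on the 6 TOM-1 libraries alone it was -1.27 (adjusted p = 0.0953).

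IGLL1 did not follow its partner. The treated libraries stood at 896, 882 and 860 CPM, above control replicates 1 and 2 (709 and 687 CPM) and below control replicate 3 (1569 CPM). The sign of the IGLL1 change therefore turned on that library: the log2 fold change was -0.17 ± 0.26 with it (SE, adjusted p = 0.681) and 0.33 ± 0.07 without it (adjusted p = 0.000851). As a ratio of counts per kilobase within a library, VPREB1 to IGLL1 was 0.482, 0.469 and 0.626 in TOM-1 control libraries and 0.265, 0.262 and 0.275 with ADI-PEG20, so the ratios did not overlap and replicate 3 lay on the same side as its replicates. In RS4;11 the ratio was 0.339 to 0.370 in control culture and 0.338 to 0.344 with ADI-PEG20. The ratio of IGHM to VPREB1 in TOM-1 was 0.379, 0.401 and 0.258 in control libraries and 1.80, 1.80 and 1.78 in treated ones. That these did not overlap follows from the separate IGHM and VPREB1 values above. In RS4;11 it was 1.16 to 1.46 and 1.16 to 1.57.

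CD79B also depended on the library that stood apart. It read 224, 216 and 219 CPM with ADI-PEG20, between control replicates 1 and 2 (133 and 129.5 CPM) and control replicate 3 (385 CPM). The log2 fold change was 0.03 ± 0.33 (SE, adjusted p = 0.992) with all libraries and 0.74 ± 0.07 (adjusted p = 3.88e-08) without that library. CD79A read 136, 137 and 129.5 CPM with ADI-PEG20 and did not pass in either fit (log2 fold change -0.29 ± 0.22 and 0.13 ± 0.06, adjusted p = 0.363 and 0.107). The CD79A to CD79B ratio per kilobase was 1.29, 1.29 and 0.887 in TOM-1 control libraries and 0.839, 0.878 and 0.816 in treated ones, so replicate 3 lay nearest to the treated libraries. For RS4;11 this ratio was higher with ADI-PEG20, at 7.31 to 9.12 against 5.83 to 6.68 in control culture, without overlap. None of the ratios was tested.

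The kinase and the adaptor changed little. SYK read 61.3, 58.2 and 58.4 CPM in treated TOM-1, below all 3 control libraries (71.5 to 72.7 CPM). Its log2 fold change was -0.29 ± 0.10 (SE, adjusted p = 0.0503), and -0.30 ± 0.07 without TOM-1 control replicate 3 (adjusted p = 0.00268). SYK also passed without RS4;11 control replicate 2, RS4;11 control replicate 3 or RS4;11 ADI-PEG20 replicate 3 (adjusted p = 0.047, 0.0355 and 0.0478). With all libraries it passed under DESeq2 size factors (adjusted p = 0.0323), upper-quartile scaling (0.0160), DESeq2's Wald test (0.0158) and voom with quality weights (0.00316). BLNK read 353, 355 and 373 CPM in treated TOM-1, above all 3 control libraries (227 to 296 CPM). Its log2 fold change was 0.40 ± 0.14 (SE, adjusted p = 0.048), and 0.29 ± 0.08 without replicate 3 (adjusted p = 0.00801). In the 11 fits that left out any other library the BLNK change did not pass (log2 fold change 0.35 to 0.43, adjusted p from 0.0614 to 0.177). With all libraries BLNK also did not pass under DESeq2 size factors (adjusted p = 0.0639), upper-quartile scaling (0.0684), DESeq2's Wald test (0.0574), no filter (0.104) or the 6 TOM-1 libraries alone (0.141). The SYK to BLNK ratio per kilobase was lower with ADI-PEG20 in both lines, without overlap. It was 0.110 to 0.122 against 0.172 to 0.221 in TOM-1, and 5.19 to 6.66 against 6.96 to 7.08 in RS4;11. The ratio was not tested, and in RS4;11 neither gene passed in either fit and the groups of each gene overlapped.

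The recombinase genes gave unlike values in treated TOM-1. RAG2 read 44, 45.7 and 42.3 CPM with ADI-PEG20, below control replicates 1 and 2 (63.4 and 64.4 CPM) and above control replicate 3 (33.4 CPM). The log2 fold change of RAG2 was -0.29 ± 0.20 (SE, adjusted p = 0.308), and -0.54 ± 0.08 without that library (adjusted p = 1.03e-05). RAG1 read 791, 815 and 792 CPM, above every control library, but the differences from control replicates 1 and 2 were small and the change did not pass (log2 fold change 0.49 ± 0.33 with all libraries and 0.10 ± 0.07 without replicate 3, adjusted p = 0.289 and 0.284). The RAG1 to RAG2 ratio per kilobase was 5.31, 5.09 and 2.96 in TOM-1 control libraries and 8.05, 7.99 and 8.39 in treated ones. In RS4;11 it was 1.27 to 1.41 in control culture and 1.25 to 1.39 with ADI-PEG20. DNTT read 3564, 3536 and 3353 CPM in treated TOM-1 and did not pass (log2 fold change -0.02 ± 0.15, and 0.09 ± 0.09 without replicate 3; adjusted p = 0.975 and 0.514).

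**Figure D3:**
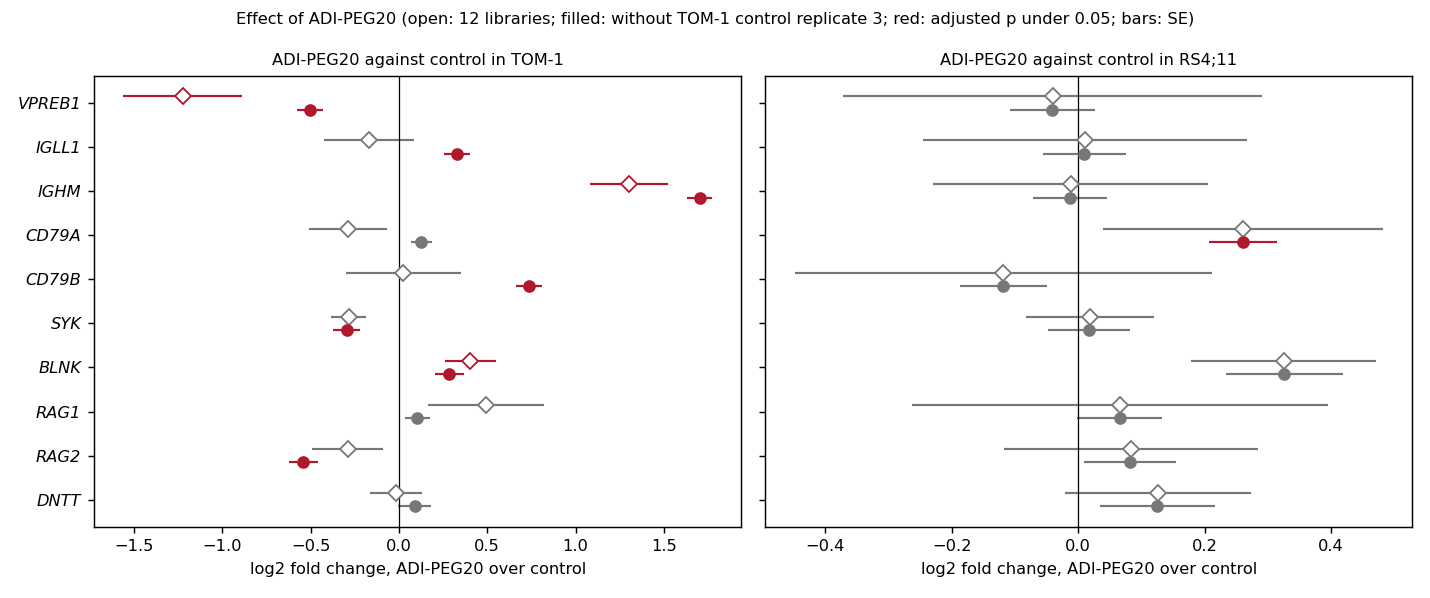
Log2 fold change of each member, ADI-PEG20 over control, in TOM-1 (left) and RS4;11 (right), with SE bars; open diamonds use all 12 libraries, filled circles leave out TOM-1 control replicate 3, and red marks an adjusted p under 0.05. In TOM-1, IGHM lies to the right and VPREB1 to the left in both fits, while IGLL1, CD79A and DNTT change side. The axes of the panels differ.

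**Figure D4:**
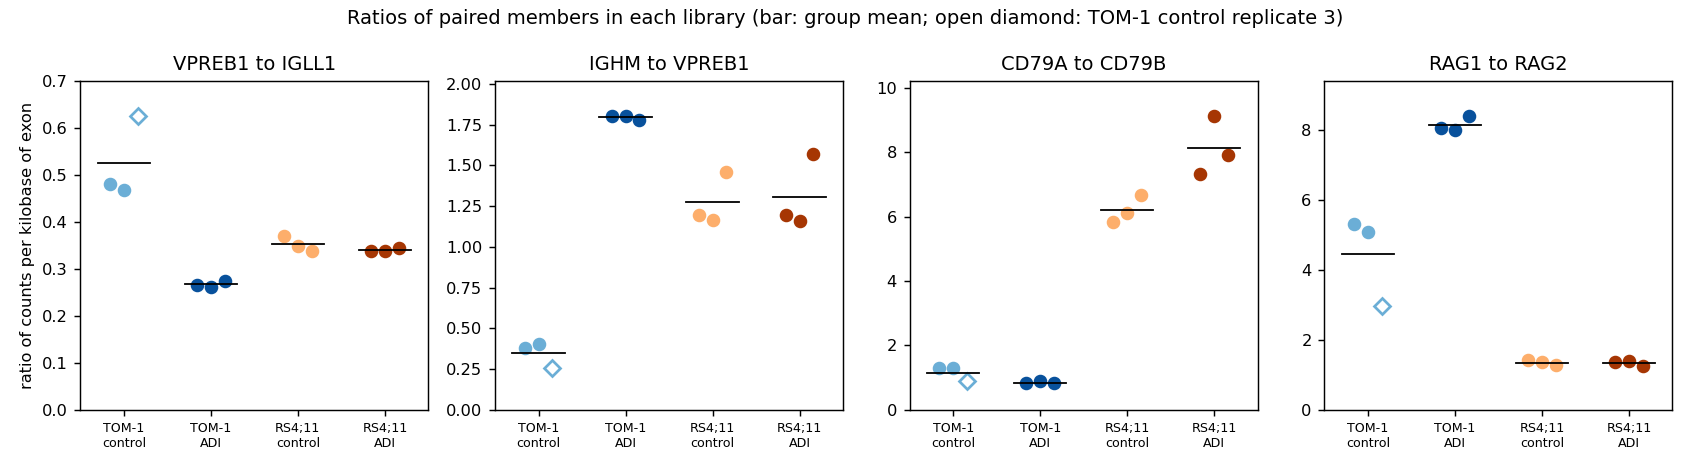
Ratio of counts per kilobase of exon for pairs of members in each library; bars are group means and the open diamond is TOM-1 control replicate 3. The ratio of VPREB1 to IGLL1 is lower, and those of IGHM to VPREB1 and RAG1 to RAG2 higher, in the 3 treated TOM-1 libraries than in the 3 TOM-1 control libraries.

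The departure of TOM-1 control replicate 3 followed gene length among the members. Relative to the mean of the other TOM-1 controls it read 2.96-fold for VPREB1 (755 exonic bases), 2.93-fold for CD79B (2080), 2.25-fold for IGLL1 (904), 2.02-fold for CD79A (1503) and 1.96-fold for IGHM (1871). It read 0.522-fold for RAG2 (3502 bases) and 0.297-fold for RAG1 (7815 bases). The middle members were DNTT (1.23-fold), SYK (0.985-fold) and BLNK (0.769-fold). Over the 10 members the rank correlation of this ratio with exonic length was -0.83, and over 17072 tested genes it was -0.27; genes of 1 library are not independent replicates. The part of length, or of RNA quality, in the members' results was not tested.

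In RS4;11 no member changed with all libraries: 0 of 10 passed, where 0% of all genes tested were called by edgeR. At an unadjusted p under 0.05 there was 1 member (BLNK) and 325 genes in all, and the Wald test of DESeq2 called 0 genes. Without TOM-1 control replicate 3, which enters this contrast only through the shared estimate of spread, CD79A passed, where 0.317% of genes were called. CD79A read 267, 275 and 285 CPM in control culture and 328, 343 and 321 CPM with ADI-PEG20, without overlap. Its log2 fold change was 0.26 ± 0.22 with all libraries (SE, adjusted p = 1) and 0.26 ± 0.05 without that library (adjusted p = 0.0408). BLNK read 19.2, 20.5 and 17.2 CPM and then 25.5, 26.1 and 19.7 CPM, groups that overlapped, and its fold change on the log2 scale was 0.33 ± 0.15 (SE, adjusted p = 1). For the other 8 members the log2 fold change lay between -0.12 (CD79B) and 0.13 (DNTT).

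The IGHM response differed between the lines by the test of the difference itself. IGHM read 653, 683 and 762 CPM in RS4;11 control libraries and 652, 679 and 751 CPM in treated ones. On the log2 scale that change was -0.01 ± 0.22 (SE). The difference of the effects, TOM-1 minus RS4;11, was 1.32 ± 0.31 on the log2 scale (SE, adjusted p = 0.0175), and 1.71 ± 0.09 without TOM-1 control replicate 3 (adjusted p = 7.08e-12). IGHM was the 1 of 10 members called, where 11.9% of all genes were. It missed the threshold when TOM-1 ADI-PEG20 replicate 2 or 3, RS4;11 control replicate 3, or RS4;11 ADI-PEG20 replicate 1 or 2 was left out (adjusted p = 0.0504, 0.0513, 0.0516, 0.0582 and 0.0541). Once TOM-1 control replicate 3 was left out, 6 members were called, where 30.4% were: IGHM, CD79B (0.86 ± 0.10) and IGLL1 (0.32 ± 0.10) with the higher change in TOM-1, and RAG2 (-0.62 ± 0.11), VPREB1 (-0.46 ± 0.10) and SYK (-0.31 ± 0.10) with the lower. With all libraries VPREB1 had a difference of -1.18 ± 0.47 (adjusted p = 0.125), and it passed without TOM-1 control replicate 1 or 2 (adjusted p = 0.0437 and 0.0334). BLNK, with log2 fold changes of 0.40 in TOM-1 and 0.33 in RS4;11, showed no detectable difference of effect (0.08 ± 0.20 with all libraries, adjusted p = 0.88).

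The lines compared under ADI-PEG20 use no control library. There, 7 of 10 members differed, 4 higher in TOM-1 (CD79B, BLNK, RAG1, DNTT) and 3 lower (CD79A, SYK, RAG2), where 47.2% of all genes were called. With the spread estimated without TOM-1 control replicate 3, 9 differed, where 62.9% were, the additions being IGHM (0.33 ± 0.06) and IGLL1 (0.20 ± 0.07), both higher in TOM-1. RAG2, not called in control culture, had a log2 difference of -0.70 ± 0.20 (SE, adjusted p = 0.0131). IGHM, lower in TOM-1 in control culture, now read 860 to 885 CPM there against 652 to 751 CPM in RS4;11, with no overlap (log2 difference 0.33 ± 0.22, adjusted p = 0.239). VPREB1 read 193 to 198 CPM in TOM-1 and 193 to 236 CPM in RS4;11, and did not pass in either fit (adjusted p = 0.759 and 0.065). DNTT and BLNK kept differences of 5.36 ± 0.18 and 3.92 ± 0.16. The comparisons share libraries with those above, so they are not independent of them.

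Other chains of the receptor family were counted from a list of 11, of which 6 passed the filter. In TOM-1, 2 of the 6 changed with ADI-PEG20, both upward and in both fits, a share near the 31.9% of all genes called: IGKC, the kappa constant region, with 140, 51 and 178 counts in control libraries and 462, 554 and 505 in treated ones (log2 fold change 1.96 ± 0.48, adjusted p = 0.00827; 2.74 without replicate 3), and IGHD, the delta constant region next to IGHM (1.33 ± 0.31, adjusted p = 0.00635; 1.08 without replicate 3). IGKC had at most 1 count in any RS4;11 library. IGLC3, a lambda constant region, was at 117 to 155 counts in RS4;11 control libraries and 0 to 6 in those of TOM-1. In control culture all 6 differed between the lines, 4 higher in TOM-1 (5, with 3 higher, without replicate 3), where 34.7% of all genes were called (52.8%). VPREB3, a chaperone of the assembling receptor, was among these, with a log2 difference of 2.57 ± 0.39 (adjusted p = 0.000254; 1.95 without replicate 3). IGLL5 (2.67 ± 0.45, adjusted p = 0.000546) shares 43.6% of its exonic bases with IGLC1 and IGLJ1 and its counts are uncertain.

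The heavy chain variable segments, chosen after values were seen and uncertain as a family of near-identical genes, were summed without a test. The sum over 151 IGHV genes was 64.4 to 70.7 CPM in TOM-1 control libraries and 165 to 166 CPM in treated ones, and 141 to 161 and 169 to 175 CPM in RS4;11. In both lines the treated sums lay above the control sums, and the treated sums of the lines were close. The highest single segment in treated TOM-1 was the pseudogene IGHV4-55, at 28.1, 31.9 and 22.2 CPM in control libraries and 110.4, 113 and 108 CPM in treated ones. Most of the rise of the TOM-1 sum was in this segment, so the sum does not show a rise across the family. In TOM-1 control libraries another pseudogene, IGHV5-78, was the highest, at a mean of 31.4 CPM. IGHV4-55 had 0 counts in the RS4;11 libraries, where IGHV3-20 was the highest, at a mean of 61.6 CPM in control culture.

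Among 33 kinases, adaptors and brakes of the receptor, 18 changed in TOM-1 with ADI-PEG20, 11 upward and 7 downward, and 25 without replicate 3, 17 upward and 8 downward, where 31.9% and 41.6% of all genes were called. Their median log2 fold change was 0.19, and 0.15 without it. FYN, a Src-family kinase, rose from 52.3 to 57.3 CPM in control libraries to 142 to 161 CPM (log2 fold change 1.47 ± 0.11, adjusted p = 6.32e-06; 1.43 without replicate 3). FCRLA, an intracellular Fc receptor-like protein, rose by 1.41 ± 0.29 (adjusted p = 0.00368; 1.75 without replicate 3). PTPN6, the phosphatase SHP-1, a brake on receptor signalling, fell from 124 to 206 CPM to 46.2 to 53.8 CPM (-1.64 ± 0.18, adjusted p = 5.3e-05; -1.38 without replicate 3), and the adaptor SH2B2 fell as well (-1.49 ± 0.36, adjusted p = 0.00872; -0.75 without replicate 3). In RS4;11, 0 of the 33 changed in either fit, where 0% and 0.317% of all genes were called. At an unadjusted p under 0.05 there were 0 and 6 of them, and 325 and 2207 genes in all. The difference of effect passed for 6, 4 higher and 2 lower in TOM-1, and for 18 without replicate 3, 11 higher and 7 lower, where 11.9% and 30.4% of all genes were called. The 6 included FYN (1.54 ± 0.16, adjusted p = 0.000206), BCL10, an NF-κB signalling adaptor (0.97 ± 0.28, adjusted p = 0.0465) and PTPN6 (-1.51 ± 0.24, adjusted p = 0.00261). In control culture 17 of the 33 differed between the lines, 6 higher and 11 lower in TOM-1, and 26 without replicate 3, 10 higher and 16 lower (34.7% and 52.8% of all genes). PTPRC (CD45), the phosphatase that activates Src-family kinases, was at 0 to 3.24 CPM in TOM-1 and 457 to 476 CPM in RS4;11. The adaptors SLA2 (3.55 ± 0.48, adjusted p = 9.65e-05) and SLA (-3.59 ± 0.42, adjusted p = 3.17e-05) lay on opposite sides.

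Of 15 partners of the recombinase and end-joining factors, 6 changed in TOM-1 with ADI-PEG20, 1 upward and 5 downward, and 10 without replicate 3, 2 upward and 8 downward, where 31.9% and 41.6% of all genes were called. Their median log2 fold change was -0.16, and -0.27 without it. LIG4, the ligase that seals the joined ends, rose from 41.2 to 115 CPM in control libraries to 185 to 192 CPM (1.09 ± 0.29, adjusted p = 0.0124; 0.75 without replicate 3). XRCC6, the Ku70 subunit that holds broken ends, fell from 582 to 979 CPM to 354 to 374 CPM (log2 fold change -0.996 ± 0.170, adjusted p = 0.00109; -0.72 without replicate 3), and PAXX, a Ku partner, fell by 1.23 on the log2 scale (SE 0.39, adjusted p = 0.0307; -0.36 without replicate 3). HMGB1, the DNA-bending cofactor of RAG cleavage, was called in the difference of effects together with XRCC6 (-0.82 ± 0.15 and -0.90 ± 0.24, adjusted p = 0.00475 and 0.0307). These were the 2 of 15 called there, and 7 were called without replicate 3, 1 higher and 6 lower, where 11.9% and 30.4% of all genes were called. In RS4;11, 0 of the 15 changed, and 1 without replicate 3, the kinase ATM (0.36 ± 0.07, adjusted p = 0.0255), where 0% and 0.317% of all genes were called. LIG4 also separated the lines, at a log2 difference of 2.65 ± 0.30 in control culture (adjusted p = 2.69e-05); XRCC4, its partner, was lower in TOM-1 (-0.85 ± 0.16, adjusted p = 0.00117), as was the polymerase POLL (-0.51 ± 0.14, adjusted p = 0.0155).

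Of 20 transcription factors of pre-B genes, 11 changed in TOM-1 with ADI-PEG20, 7 upward and 4 downward, and 17 without replicate 3, 9 upward and 8 downward, where 31.9% and 41.6% of all genes were called. POU2AF1, the coactivator of octamer factors at immunoglobulin genes, rose from 84.9 to 89.4 CPM to 218 to 242 CPM (1.39 ± 0.11, adjusted p = 7.58e-06), and BACH2, a repressor active in B-cell development, rose by 1.40 ± 0.27 (adjusted p = 0.00216; 1.07 without replicate 3). ID3, an inhibitor of E2A proteins, fell from 304 to 675 CPM to 89.8 to 95.4 CPM (-2.25 ± 0.25, adjusted p = 7.15e-05; -1.79 without replicate 3), and IKZF3 (Aiolos) fell by 1.13 on the log2 scale (SE 0.16, adjusted p = 0.000274). TCF3, which encodes the E2A proteins, had a log2 fold change of -0.22 ± 0.09 (adjusted p = 0.0926), and -0.18 ± 0.05 without replicate 3 (adjusted p = 0.00864). In RS4;11, 0 of the 20 changed, and 1 without replicate 3 (BACH2, 0.44 ± 0.08, adjusted p = 0.0255), where 0% and 0.317% of all genes were called. The difference of effects passed for 6, 2 higher and 4 lower in TOM-1, and for 14 without replicate 3, 8 higher and 6 lower, where 11.9% and 30.4% of all genes were called. The 6 included POU2AF1 (1.37 ± 0.15), MYB (1.27 ± 0.22), ID3 (-2.05 ± 0.34) and SPIB (-1.74 ± 0.49). In control culture 15 of the 20 differed between the lines (18 without replicate 3), where 34.7% and 52.8% of all genes were called, with IKZF3 (3.74 ± 0.17) and TCF4 (2.98 ± 0.30) higher in TOM-1, and SPIB (-2.30 ± 0.34) and BCL6 (-1.59 ± 0.17) lower.

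**Figure D5:**
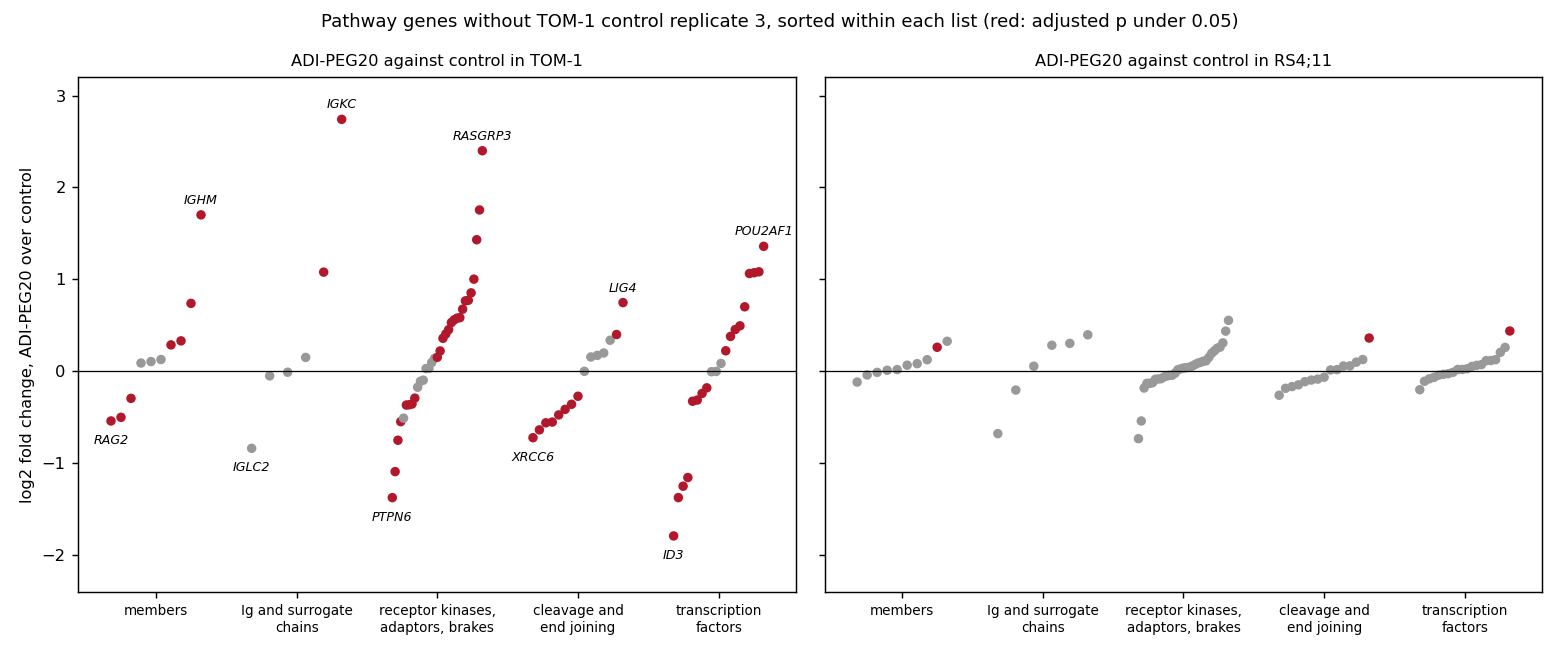
Log2 fold change, ADI-PEG20 over control, of the members and of 4 lists of pathway genes in TOM-1 (left) and RS4;11 (right), fitted without TOM-1 control replicate 3; each point is a tested gene, sorted within its list, red marks an adjusted p under 0.05, and the outermost genes are named in TOM-1. Red points lie on both sides of 0 in 4 of the 5 groups of genes in TOM-1, and 3 points are red in RS4;11.

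The genes whose levels followed each member most closely over the 12 libraries were named by Pearson's r of log2 CPM among 10403 genes with a mean of 5 CPM or more; the libraries share 4 groups and 1 departing library. They were RPL36 (0.991) and NOP53 (0.990) for VPREB1, HLA-B (0.992) and GRK2 (0.991) for CD79B, ESYT2 (0.999) and KIF1B (0.995) for RAG1, and SEC11C (0.998) and TRGC1 (0.998) for DNTT. For IGHM they were TATDN1 (0.970) and TRIP4 (0.969). With TOM-1 control replicate 3 left out, over 11 libraries and 10434 genes, the closest to VPREB1 were CBX1 (0.963) and ANKH (0.955), to IGHM LRCH4 (0.990), and to RAG1 NRIP1 (0.999) and ESYT2 (0.999). For both BLNK and DNTT, the closest gene was then GAB1 (0.999 for each).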

How the data were processed

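Poly(A) RNA of 12 libraries, 3 in each of 4 groups taken from the sample titles, was measured. The authors deposited raw read counts per Ensembl gene, not normalized; the submitters' processing notes name hg38, STAR, SAMtools and featureCounts, without versions or roles. The annotation release and the use of strand are not given in the sources used here. Of 60664 genes, 29301 had 0 counts in every library, and 60463 identifiers matched a gene name. Positions, exonic lengths and overlaps came from GENCODE 29 (58396 identifiers), and promoter sequences from RefSeq (GRCh38.p14).

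The main test, on these counts, was the quasi-likelihood test of edgeR 4.0.16 (R 4.3.3): filterByExpr, TMM scaling, a group-means model over all 12 libraries, glmQLFit and glmQLFTest, with Benjamini-Hochberg adjustment over all genes tested and 0.05 as the threshold. There were 5 contrasts: the ADI-PEG20 effect within a line (for both lines), their difference, and the line difference in either culture. CPM values use TMM-scaled totals, and log2 CPM used a prior count of 2. Each SE of an edgeR fit was derived from the test itself, as the absolute log2 fold change over the square root of the F statistic. It is therefore not a separate estimate of error. Totals of 18958144 to 35956959 counts set the precision. Alternatives used DESeq2 1.42.0, limma 3.58.1 (voom with quality weights), other scalings, no filter, a replicate block, 6-library fits and each library left out; 4 that combine a setting with leaving out TOM-1 control replicate 3 were chosen after seeing the data. Code was tested on simulated data. Figures used matplotlib 3.10.9.

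Members and lists were chosen with earlier results of these data known. Beside the members, the rule names, per list and contrast, the 2 genes with the largest change in each direction that passed, reached 5 CPM and had groups without overlap, and the 2 genes most like each member; a selection of these is printed, and some genes the rule names are not reported here. VPREB3, TCF3, OPALIN, ZNF518A and the other neighbours of BLNK and DNTT, PTPRC in CPM and the IGHV segments were named for their role or position after values were seen.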

Additional observations from a re-analysis of the deposited data

Results flagged for a closer look

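The effect of ADI-PEG20 differed between the lines, by the test of the difference in edgeR, for IGHM with all libraries (TOM-1 minus RS4;11, 1.32 on the log2 scale). Without TOM-1 control replicate 3 it differed for 6 members, where 30.4% of all genes were called. The differences were 1.71 for IGHM, 0.86 for CD79B and 0.32 for IGLL1, where the change was more upward in TOM-1, and -0.62 for RAG2, -0.46 for VPREB1 and -0.31 for SYK, where it was more downward. In each of these the treated TOM-1 libraries lay outside the range of TOM-1 control replicates 1 and 2. The members were picked by a fit on those same libraries, so that separation adds no support. For CD79B, IGLL1 and RAG2, replicate 3 (385, 1569 and 33.4 CPM) lay on the other side of the treated libraries. With it the groups of these genes overlapped.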

How the results depend on the processing

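The number of members called in TOM-1 with ADI-PEG20 was 3; it was 1 on the 6 libraries of the contrast, 7 with voom quality weights, 1 to 7 with each library left out, and, without TOM-1 control replicate 3, 9 with the replicate block and 7 with DESeq2's Wald test, DESeq2 size factors or upper-quartile scaling. In RS4;11 the count of 0 became 1 with voom, 0 to 1 with each library left out, and, without that library, 1 with the block or upper-quartile scaling and 2 with the Wald test. For the difference of effects the count of 1 became 2 without a filter, 6 with voom, 0 to 6 with each library left out, and 6 in all 4 settings combined with leaving out replicate 3. Between the lines in control culture the count of 8 became 5 on 6 libraries. The cause was not tested. In edgeR, leaving out TOM-1 control replicate 3 raised the share of all genes called from 31.9% to 41.6% in TOM-1. It rose from 0% to 0.317% in RS4;11 and from 11.9% to 30.4% for the difference of effects. Between the lines in control culture it rose from 34.7% to 52.8%. That share is not given here for the other settings above, so their counts say nothing about the members in particular.

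The labels do not say that replicate numbers pair libraries: 1 of 18 same-numbered pairs had a correlation of deviations over 0.1 (-0.062 to 0.145), and 7 of 12 libraries correlated best with their own number. With the replicate block the members called were 3 in TOM-1, 0 in RS4;11, 1 for the difference, 7 between the lines in control culture and 7 under ADI-PEG20. Of all 17349 genes tested with the block, 5324, 0, 1939, 5647 and 7964 were called, in the same order.

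Signs turned as follows, with the settings in the order voom, no TOM-1 control replicate 3, and that with the block, the Wald test, DESeq2 size factors, then upper-quartile scaling. In TOM-1, IGLL1 became 0.32, 0.33, 0.37, 0.32, 0.32 and 0.30 (-0.41 to 0.33 with each library left out). CD79A became 0.12, 0.13, 0.13, 0.12, 0.12 and 0.097 (-0.50 to 0.13). DNTT became 0.091, 0.089, 0.18, 0.079, 0.078 and 0.059 (-0.10 to 0.089). For the difference of effects, IGLL1 became 0.29, 0.32, 0.36, 0.30, 0.30 and 0.27 (-0.42 to 0.32), and in control culture between the lines it became -0.10, -0.12, -0.16, -0.14, -0.14 and -0.13 (-0.12 to 0.55). CD79B in TOM-1 became -0.034 with DESeq2 size factors, -0.088 with upper-quartile scaling, -0.034 with the Wald test and -0.023 on 6 libraries (-0.27 to 0.74). The difference for BLNK became -0.0069 with upper-quartile scaling, -0.034 with voom, -0.039 without replicate 3, and then -0.055, -0.056 and -0.086 with the Wald test, size factors and upper-quartile scaling (-0.081 to 0.11). With upper-quartile scaling and no replicate 3 the difference for RAG1 was -0.0074, and with the block and no replicate 3 that for DNTT was 0.051. In RS4;11, SYK was -0.0083 with voom (-0.048 to 0.073), and IGHM was 0.0022 with upper-quartile scaling, 6.54e-05 without a filter, 0.0017 with voom and 0.0024 with upper-quartile scaling and no replicate 3 (-0.071 to 0.054). With each library left out, the difference for CD79B ran from -0.15 to 0.86, and in RS4;11 IGLL1 ran from -0.063 to 0.095, RAG1 from -0.022 to 0.13 and VPREB1 from -0.11 to 0.037. With all libraries, IGLL1 passed under voom in TOM-1 (adjusted p = 0.00131) and for the difference of effects (adjusted p = 0.0318), and none of the values that turned had passed in the edgeR fit of all libraries.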
